A study of Mus musculus with 9 samples.

Results

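The genes described here are 10 that modify, fold and cleave procollagen: the prolyl 4-hydroxylase subunits P4ha1, P4ha2, P4ha3 and P4hb, the lysyl hydroxylases Plod1, Plod2 and Plod3, the collagen chaperone Serpinh1, the procollagen C-proteinase Bmp1 and its enhancer Pcolce. They were chosen by name, and each had 1 of the 35024 rows of the deposited expression table. Expression was measured by bulk RNA sequencing of hepatic stellate cells, liver pericytes that store vitamin A, in 9 libraries from mice on a C57BL/6J background. Every mouse carried floxed YAP alleles and received CCl4, a hepatotoxin, as 6 intraperitoneal injections of 0.5 mg/kg at intervals of 3 days. Cells were sorted on retinoid autofluorescence 2 days after the last injection and lysed directly. The 5 control libraries (LYT004, LYT005, LYT014, LYT015 and LYT017) came from floxed mice without Cre, and the 4 YAP-deleted libraries (LYT006, LYT008, LYT013 and LYT016) from floxed mice with LratCre. This Cre is driven by the promoter of Lrat, a gene of stellate cells, so deletion is limited to cells that use or have used that promoter. No group has Cre without the floxed alleles, so an effect of the Cre and an effect of YAP loss cannot be told apart. Age, sex and the number of mice behind each library are not given in the sources used here, so the p-values reflect variation among these libraries only, some of it possibly technical.

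Procollagen chains are made in the endoplasmic reticulum. Prolyl 4-hydroxylase, a tetramer of alpha subunits (P4ha genes) and the protein disulfide isomerase P4hb, hydroxylates prolines, which stabilises the triple helix. Lysyl hydroxylases modify lysines that later carry sugars or form crosslinks, and Plod2 acts on lysines of the telopeptides. Serpinh1 (HSP47) binds the folded helix until it leaves the endoplasmic reticulum, and outside the cell Bmp1, helped by Pcolce, removes the C-propeptide so that fibrils can form. Activated stellate cells are a main source of fibrillar collagen in the injured liver.

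Before the comparison, the label check has to be given, since it touches each result. Yap1 had 2902, 2915, 3653 and 3551 normalised counts in control LYT004, LYT005, LYT015 and LYT017, and 642, 648 and 645 in YAP-deleted LYT006, LYT008 and LYT016. A normalised count is a count recovered from the deposited value and divided by the size factor of its library. It was at 618 in LYT014, which is labelled control, and at 2530 in LYT013, which is labelled YAP-deleted, so these 2 libraries went against their labels. As labelled, Yap1 differed by −1.30 on the log2-like scale (exact two-sided permutation p = 0.0794 over 126 regroupings). For that reason the differences of the 10 genes are given with all 9 libraries as labelled and with the 7 libraries that remain without LYT013 and LYT014 (4 control, 3 YAP-deleted). Total counts per library ran from 14052502 to 31816055. The 11 stellate markers summed to between 512798 and 741921 normalised counts, and none was at 0. Of the markers of other cells, 6 hepatocyte genes summed to 251 to 835 in control and 420 to 1079 in YAP-deleted libraries, 8 macrophage genes to 224 to 754 and 411 to 1130, and 6 endothelial genes to 908 to 3395 and 1513 to 3768. The sums were 28.1 to 121 and 26.3 to 99.2 for 4 cholangiocyte genes, 2799 to 3876 and 1995 to 3380 for 4 vascular smooth muscle genes, and 557 to 1574 and 474 to 1608 for 6 portal fibroblast and mesothelial genes. Without LYT014 and LYT013 the sums were 366 to 835 and 420 to 597 for hepatocyte, 224 to 670 and 411 to 1130 for macrophage, and 908 to 2731 and 1513 to 2033 for endothelial genes. They were then 40.3 to 121 and 64.2 to 99.2 for cholangiocyte, 2799 to 3876 and 1995 to 2961 for smooth muscle, and 557 to 1574 and 743 to 1608 for portal and mesothelial genes. Myh11 made up most of the smooth muscle sum and Clec4g most of the endothelial sum in each library. In control LYT014, Kdr (482 normalised counts) and Stab2 (408) were higher than in any other library, where they reached at most 118 and 181. The part of these other cell types in the results was not tested. In bulk RNA, fewer cells of a type and less RNA per cell cannot be told apart.

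No difference between the groups passed the test for any of the 10 genes. All 10 passed the filter on low values in both comparisons. P4ha3 did so through the control libraries, since YAP-deleted LYT006 and LYT016 were at 0. It is among the genes counted below with an unadjusted p under 0.05 in the 7 libraries, so that count is not read as a result. With 9 libraries as labelled, limma called 0 of the 10 at an adjusted p under 0.05, against 0% of all 17203 genes tested, and 0 of the 10 had an unadjusted p under 0.05, against 7.22% of all genes. In the 7 libraries limma again called 0 of the 10, against 0.0694% of 17296 genes (12 genes, of which 3, or 0.0173% of those tested, were higher in YAP-deleted and 9, or 0.052%, lower), and 2 of the 10 had an unadjusted p under 0.05 against 6.31% of all genes. With limma voom, run on the counts recovered from the table, 0 of the 10 passed in either comparison. The groups overlapped for each of the 10 genes in both comparisons, whereas they did not overlap for 2.84% of all genes in the 9 libraries (1.69% higher and 1.15% lower in YAP-deleted) and 7.33% in the 7 (3.86% higher and 3.46% lower). The median difference of the 10 genes was 0.00 log2-like units in the 9 libraries and −0.01 over all genes, and 5 of the 10 were positive against 49.1% of all genes. In the 7 libraries it was −0.09 beside −0.01, and 2 of the 10 were positive against 48.4%.

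**Figure D1:**
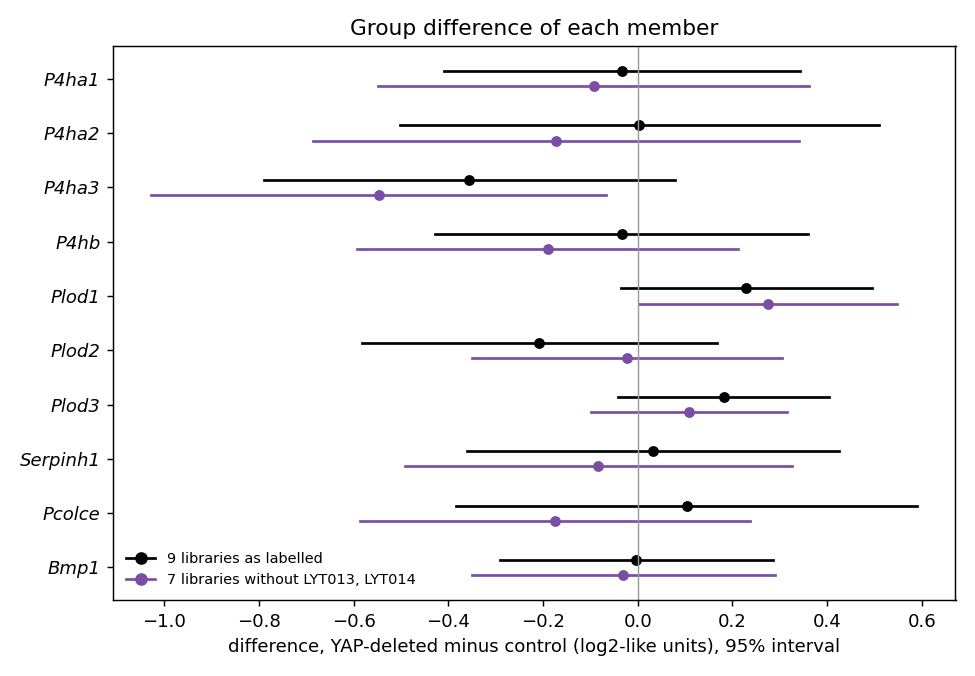
Difference between YAP-deleted and control libraries for each of the 10 genes, on the log2-like scale (horizontal axis), with its 95% interval from limma, for 9 libraries as labelled (black) and 7 libraries (purple). All intervals but those of P4ha3 and Plod1 in the 7 libraries include 0, and no gene passed after adjustment over all genes.

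The 10 transcripts covered a wide span of abundance, and the order was led by the chaperone. Per kilobase of transcript, which allows genes to be compared, Serpinh1 averaged 13791 ± 2086 normalised counts per kb (SD over the 9 libraries of both groups). P4hb followed with 8893 ± 1580 and Pcolce with 7950 ± 1992, and their ranges overlapped (7398 to 11707 and 5691 to 11718). Plod1 came next at 2502 ± 342, clear of its neighbours. P4ha1 (1229 ± 221) and Bmp1 (1038 ± 131) overlapped in range, as did Plod3 (728 ± 75.6) and Plod2 (515 ± 97.8). P4ha2 was lower at 214 ± 60.7, and P4ha3 was nearly absent at 2.51 ± 2.71. Lengths were medians of the coding transcripts in GENCODE's basic set. With the longest transcript, P4hb (5642) fell below Pcolce (7847) and P4ha1 (887) below Bmp1 (1038).

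**Figure D2:**
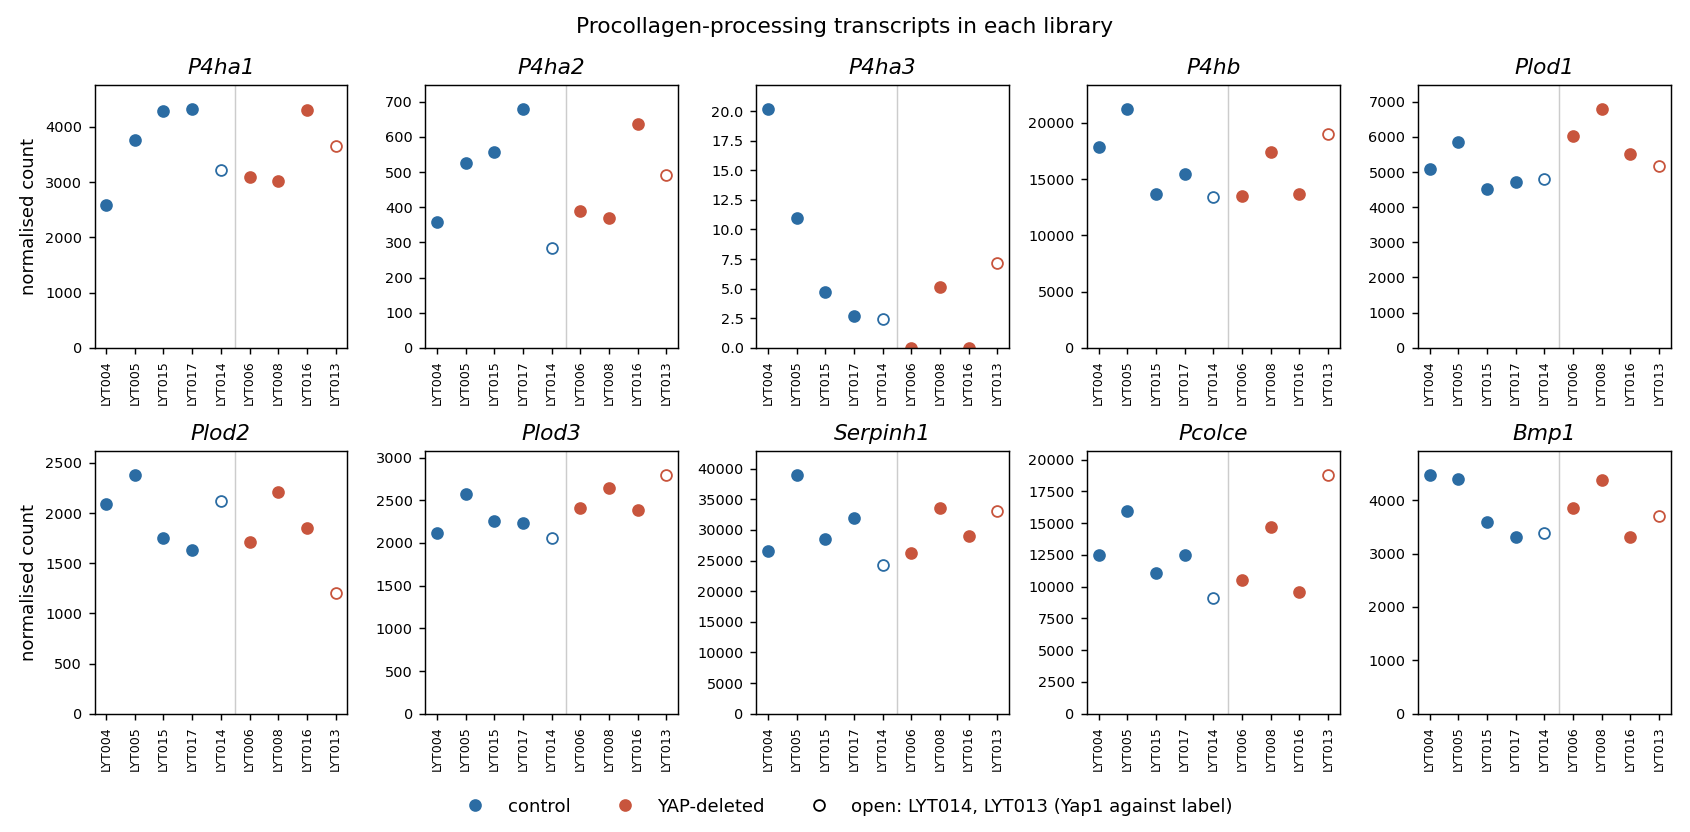
Normalised count of each of the 10 genes (vertical axis, from 0, 1 panel per gene) in each library (horizontal axis), control in blue and YAP-deleted in red, with LYT014 and LYT013 as open points. Within each panel the red and blue points overlap, and P4ha3 stays at or under 20.2.

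P4ha1, the alpha subunit that made up most of the P4ha transcripts here, lies on chromosome 10 at 59323296 to 59373304 (GRCm38, plus strand). It had 2582, 3756, 4298 and 4329 normalised counts in control LYT004, LYT005, LYT015 and LYT017, and 3216 in LYT014. The YAP-deleted libraries LYT006, LYT008 and LYT016 had 3094, 3030 and 4312, and LYT013 had 3657. Both groups held low and high libraries, and the difference was −0.03 ± 0.17 log2-like units in the 9 libraries (SE, limma adjusted p = 0.957) and −0.09 ± 0.20 in the 7 (limma adjusted p = 0.960). The 95% interval in the 7 libraries ran from 0.684 to 1.28 times the control level.

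P4ha2, a second catalytic alpha subunit on chromosome 11 (54100095 to 54131665, plus strand), was lower in level but ranked the libraries almost as P4ha1 did. It had 357, 525, 557 and 680 normalised counts in control LYT004, LYT005, LYT015 and LYT017 and 285 in LYT014, against 390, 369 and 638 in YAP-deleted LYT006, LYT008 and LYT016 and 491 in LYT013. For both genes the 4 lowest libraries were LYT004, LYT006, LYT008 and LYT014, and the 3 highest LYT015, LYT016 and LYT017. The P4ha2 difference was 0.00 ± 0.23 in the 9 libraries (SE, limma adjusted p = 0.997) and −0.17 ± 0.23 in the 7 (limma adjusted p = 0.945). Within groups its SD was 0.40 log2-like units, higher than that of 90.2% of the 2621 genes within 0.5 units of its level, whose median SD was 0.21.

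P4ha3, the third alpha subunit (chromosome 7, 100285520 to 100319699, plus strand), was at the limit of detection. Its counts before scaling were 19, 9, 5 and 2 in control LYT004, LYT005, LYT015 and LYT017 and 3 in LYT014, against 0, 4 and 0 in YAP-deleted LYT006, LYT008 and LYT016 and 12 in LYT013. A count of 0 allows up to 3 counts, which is 3.46 normalised counts in LYT006 and 2.50 in LYT016. The 3 counts of LYT014 (2.41 normalised) lie under both limits. The 2 counts of LYT017 (2.69 normalised) lie under that of LYT006 and slightly above that of LYT016. At so few counts these 4 libraries were not ranked. The control mean was 8.22 ± 7.57 normalised counts and the YAP-deleted mean 3.07 ± 3.65 (SD, n = 5 and 4), and in the 7 libraries 9.67 ± 7.89 and 1.70 ± 2.95 (n = 4 and 3). The difference of −0.55 ± 0.21 log2-like units in the 7 libraries had a limma unadjusted p = 0.0297 and an adjusted p = 0.751. It was −0.36 ± 0.20 in the 9 (limma adjusted p = 0.649). On the scale log2(normalised count + 1) the differences were −2.23 in the 7 libraries (limma adjusted p = 0.725) and −1.42 in the 9 (limma adjusted p = 0.644). Limma voom on counts gave −2.98 (adjusted p = 0.723) and −1.80 (adjusted p = 0.601). Because P4ha3 passed the filter on low values through the control libraries, these differences and p-values are no support for a change.

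P4hb, which serves both as the beta subunit of prolyl 4-hydroxylase and as a disulfide isomerase, lies on chromosome 11 at 120560298 to 120573253 (minus strand). It had 17867, 21249, 13718 and 15448 normalised counts in control LYT004, LYT005, LYT015 and LYT017 and 13426 in LYT014, against 13496, 17439 and 13648 in YAP-deleted LYT006, LYT008 and LYT016 and 18980 in LYT013. LYT005 was highest and LYT014 lowest, and both are labelled control. The difference was −0.03 ± 0.18 in the 9 libraries (SE, limma adjusted p = 0.959) and −0.19 ± 0.18 in the 7 (limma adjusted p = 0.921). By range of library codes, a split that the labels do not explain, it was −0.34 among codes 4 to 8 (2 control, 2 YAP-deleted) and 0.18 among codes 13 to 17 (3 and 2).

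P4hb and the alpha subunits P4ha1 and P4ha2 did not rank the libraries alike. P4hb per kb was 9.34 times the sum of the 3 alpha subunits in LYT004 and 4.26 times in LYT016, with a median of 6.02. The libraries with ratios under 5 were LYT015, LYT016 and LYT017, the same 3 in which P4ha1 and P4ha2 were highest. P4ha1 made up 82.9% to 89.5% of the alpha subunit transcripts per kb and P4ha2 10.4% to 17%. The P4ha1 share averaged 85.2% ± 2.57 in control and 85.2% ± 1.06 in YAP-deleted libraries (SD, n = 5 and 4), and 84.1% ± 1.03 and 85.2% ± 1.28 without LYT014 and LYT013 (n = 4 and 3).

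The sequences just upstream of the P4ha1, P4ha2, P4hb and Serpinh1 starts are shown because P4ha1 and P4ha2 moved together across libraries and P4hb and Serpinh1 followed another order. They are the 250 bases before the start in RefSeq on GRCm38.p6, 5′ to 3′ on the strand of the gene. The RefSeq start of P4ha2 lies downstream of the GENCODE gene start given above, inside the gene span. Capitals mark each match, on either strand, to ACGTG, the core letters of the hypoxia-inducible factor element, and to CCAAT, the letters of the CCAAT box.
P4ha1, chr10:59323046-59323295, plus strand: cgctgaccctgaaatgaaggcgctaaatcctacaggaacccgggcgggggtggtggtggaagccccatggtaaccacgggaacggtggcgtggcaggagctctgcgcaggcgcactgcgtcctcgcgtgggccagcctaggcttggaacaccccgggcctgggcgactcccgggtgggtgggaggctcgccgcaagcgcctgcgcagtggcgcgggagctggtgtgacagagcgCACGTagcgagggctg
P4ha2, chr11:54100674-54100923, plus strand: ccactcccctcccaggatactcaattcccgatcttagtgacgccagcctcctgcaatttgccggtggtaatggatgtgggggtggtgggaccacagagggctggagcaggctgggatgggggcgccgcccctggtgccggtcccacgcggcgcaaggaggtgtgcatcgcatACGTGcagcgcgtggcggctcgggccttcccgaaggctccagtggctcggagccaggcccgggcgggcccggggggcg
P4hb, chr11:120573254-120573503, minus strand: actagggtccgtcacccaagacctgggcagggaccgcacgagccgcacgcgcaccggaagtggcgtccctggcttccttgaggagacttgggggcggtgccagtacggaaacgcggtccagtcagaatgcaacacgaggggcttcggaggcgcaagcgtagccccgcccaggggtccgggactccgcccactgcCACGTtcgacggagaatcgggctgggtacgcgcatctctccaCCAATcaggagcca
Serpinh1, chr7:99353240-99353489, minus strand: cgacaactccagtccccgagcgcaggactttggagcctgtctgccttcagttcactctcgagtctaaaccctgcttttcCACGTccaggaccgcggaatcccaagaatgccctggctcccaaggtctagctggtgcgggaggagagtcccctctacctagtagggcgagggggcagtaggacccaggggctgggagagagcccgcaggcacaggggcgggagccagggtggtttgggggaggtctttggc

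Windows of 8 of the 10 genes were searched on both strands. ACGTG was present in 5 of the 8 (P4ha1, P4ha2, P4hb, Plod3 and Serpinh1), beside 16.6% of all 32851 windows of the same length. The match began 16 bases before the RefSeq start of P4ha1 and 78 before that of P4ha2. CCAAT was present in 2 of the 8 (P4hb and Plod3) beside 33.8% of all windows, and GGAATG, the core letters bound by the TEAD partners of YAP, in 0 of the 8 beside 12.6%. The endoplasmic reticulum stress element, a CCAAT followed at a fixed distance by CCACG, was in 0 of the 8 and 0.113% of all. The 8 windows were 55.6% to 70.0% G and C, and the share of all windows was not matched for this. A match is a description of letters and not a binding site, and the absence of these letters says nothing about the factor.

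Plod1, a lysyl hydroxylase of helical lysines on chromosome 4 (147909753 to 147936767, minus strand), had the most positive difference of the 10, short of the threshold. It had 5091, 5854, 4516 and 4708 normalised counts in control LYT004, LYT005, LYT015 and LYT017 and 4792 in LYT014, against 6020, 6797 and 5501 in YAP-deleted LYT006, LYT008 and LYT016 and 5164 in LYT013. A YAP-deleted library exceeded a control library in 18 of 20 pairs, and in 11 of 12 pairs of the 7 libraries, where LYT005 was the control inside the YAP-deleted range. The difference was 0.23 ± 0.12 log2-like units in the 9 libraries (SE, limma unadjusted p = 0.0837, adjusted p = 0.649) and 0.27 ± 0.12 in the 7 (unadjusted p = 0.0485, adjusted p = 0.783). It was 0.23 and 0.19 among library codes 4 to 8 and 13 to 17. It did not pass after adjustment in either comparison, and the 95% interval in the 7 libraries ran from 1.00 to 1.46 times the control level.

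Plod3, which has lysyl hydroxylase and glycosyltransferase activity, lies on chromosome 5 at 136987019 to 136996648 (plus strand). It had the smallest SD within groups of the 10, with 2112, 2578, 2261 and 2239 normalised counts in control LYT004, LYT005, LYT015 and LYT017 and 2059 in LYT014, against 2407, 2641 and 2385 in YAP-deleted LYT006, LYT008 and LYT016 and 2798 in LYT013. The YAP-deleted library was higher in 18 of 20 pairs, and the difference was 0.18 ± 0.10 (SE, limma adjusted p = 0.649), or 0.11 ± 0.09 in the 7 libraries (limma adjusted p = 0.909). That SD was 0.12 log2-like units beside a median of 0.23 over 1159 genes of like level. Of its 4519 annotated exon bases, 529 are shared with Znhit1 on the opposite strand, and the sources used here do not say whether counting used strand.

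Plod2, the telopeptide lysyl hydroxylase (chromosome 9, 92542223 to 92608428, plus strand), had 2090, 2381, 1756 and 1633 normalised counts in control LYT004, LYT005, LYT015 and LYT017 and 2119 in LYT014. The YAP-deleted libraries LYT006, LYT008 and LYT016 had 1716, 2207 and 1849, within the control range, and LYT013 had 1202, below every other library. The difference was −0.21 ± 0.17 with LYT013 and LYT014 (SE, limma adjusted p = 0.696) and −0.02 ± 0.14 without them (limma adjusted p = 0.983). Gm38391, annotated on the opposite strand, shares 346 of the 5392 exon bases of Plod2.

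The proportion of Plod1 to Plod2 was higher in each YAP-deleted library than in any control library. Per kb, Plod1 was 4.14, 4.18, 4.37 and 4.90 times Plod2 in control LYT004, LYT005, LYT015 and LYT017 and 3.84 times in LYT014. It was 5.96, 5.23 and 5.06 times in YAP-deleted LYT006, LYT008 and LYT016 and 7.30 times in LYT013. The groups did not overlap in the 9 libraries, which fixed the same outcome for the 7. The ratio of the group means was 1.37 in the 9 and 1.23 in the 7. Single genes did not overlap for 2.84% and 7.33% of all genes, and the share over all ratios of gene pairs was not computed. LYT013 and LYT014, whose Yap1 levels contradict their labels, lay at the ends of the range on the side of their labels. By Yap1 level and not label, the ranges overlapped, at 3.84 to 5.96 where Yap1 was low and 4.14 to 7.30 where it was high. This ratio was 1 of 12 computed and was noticed after its values were seen, so no test is given. Of the 3 lysyl hydroxylases per kb, Plod1 made up 65.3% ± 0.775 in control and 68.4% ± 1.38 in YAP-deleted libraries (SD, n = 5 and 4), Plod2 15.3% ± 1.30 and 11.9% ± 1.94, and Plod3 19.4% ± 1.39 and 19.7% ± 2.79. Without LYT014 and LYT013 (n = 4 and 3), the Plod1 share was 65.4% ± 0.845 and 68.9% ± 1.26, the Plod2 share 14.9% ± 1.12 and 12.8% ± 0.896, and the Plod3 share 19.6% ± 1.45 and 18.4% ± 0.783.

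**Figure D3:**
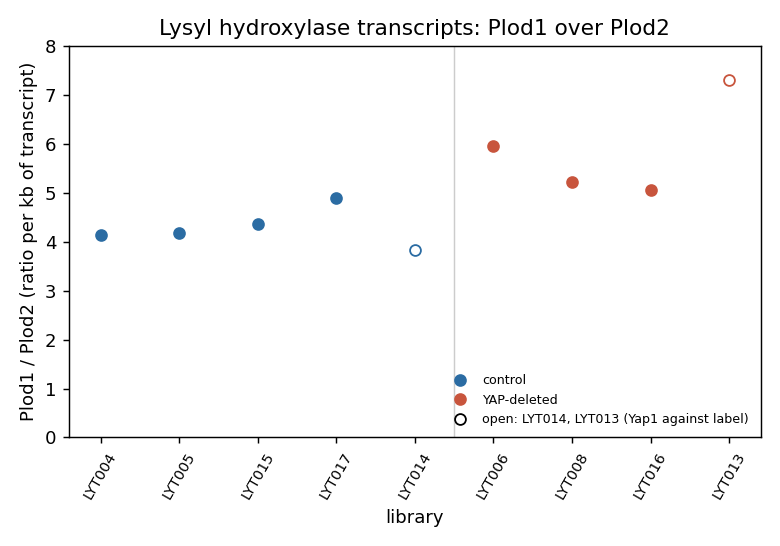
Ratio of Plod1 to Plod2, each per kb of transcript (vertical axis, from 0), in each library (horizontal axis), control in blue and YAP-deleted in red, with LYT014 and LYT013 as open points. The 5 control libraries lie between 3.84 and 4.90 and the 4 YAP-deleted libraries between 5.06 and 7.30.

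Serpinh1, the collagen-specific chaperone on chromosome 7 (99345376 to 99353239, minus strand), was the most abundant of the 10 per kb. It had 26635, 39004, 28507 and 31928 normalised counts in control LYT004, LYT005, LYT015 and LYT017 and 24307 in LYT014, against 26199, 33513 and 29078 in YAP-deleted LYT006, LYT008 and LYT016 and 33140 in LYT013. The 4 YAP-deleted libraries lay within the range of the 5 control libraries. The difference was 0.03 ± 0.18 in the 9 libraries (SE, limma adjusted p = 0.962) and −0.08 ± 0.18 in the 7 (limma adjusted p = 0.961), and the 95% interval in the 7 ran from 0.712 to 1.25 times the control level.

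Bmp1, the astacin protease that cleaves the C-propeptide, lies on chromosome 14 at 70474558 to 70520234 (minus strand). It had 4477, 4393, 3591 and 3308 normalised counts in control LYT004, LYT005, LYT015 and LYT017 and 3395 in LYT014, against 3859, 4387 and 3310 in YAP-deleted LYT006, LYT008 and LYT016 and 3700 in LYT013. LYT004, LYT005 and LYT008 were the 3 highest, from both groups. The difference was 0.00 ± 0.13 in the 9 libraries (SE, limma adjusted p = 0.996) and −0.03 ± 0.14 in the 7 (limma adjusted p = 0.980). The other tolloid proteases were close to absent: Tll1 had at most 3.21 normalised counts in any library, and Tll2 was at 0 in every library.

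Pcolce, the glycoprotein that enhances Bmp1 (chromosome 5, 137605103 to 137613784, minus strand), had 12505, 15973, 11115 and 12462 normalised counts in control LYT004, LYT005, LYT015 and LYT017 and 9135 in LYT014. The YAP-deleted libraries LYT006, LYT008 and LYT016 had 10504, 14721 and 9614. LYT013 had 18808, the highest of the 9, and LYT014 the lowest, so that the 2 libraries set apart by Yap1 also held the ends of the Pcolce range. The difference was 0.10 ± 0.22 with them (SE, limma adjusted p = 0.884) and −0.18 ± 0.18 without them (limma adjusted p = 0.932), with opposite signs and neither past the threshold. Its paralog Pcolce2 had 1.88 to 10 normalised counts. Of the 3823 exon bases of Pcolce, 112 are shared with Fbxo24 on the same strand and with Gm36266 on the opposite strand.

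Across libraries the 10 genes did not move as 1 block. Likeness was measured as the root mean square difference between genes over the 9 libraries, after each gene was centred on its mean. Smaller values mean closer profiles, but spread was not scaled. Genes that vary little, such as Plod3, can therefore lie near others without sharing their order of libraries. Among the 10 the nearest pair was Plod3 and Serpinh1 at 0.136 log2-like units, followed by Plod1 and Plod3 (0.145), P4hb and Serpinh1 (0.150) and P4hb and Pcolce (0.157). P4ha1 and P4ha2 stood at 0.186 from each other. P4ha2 was far from Plod2 (0.516) and P4ha3 (0.543), the most distant pair. In LYT005 all 10 genes lay above their own mean (median 0.27), in YAP-deleted LYT008 8 did (median 0.16), and in LYT014 1 did (median −0.18).

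**Figure D4:**
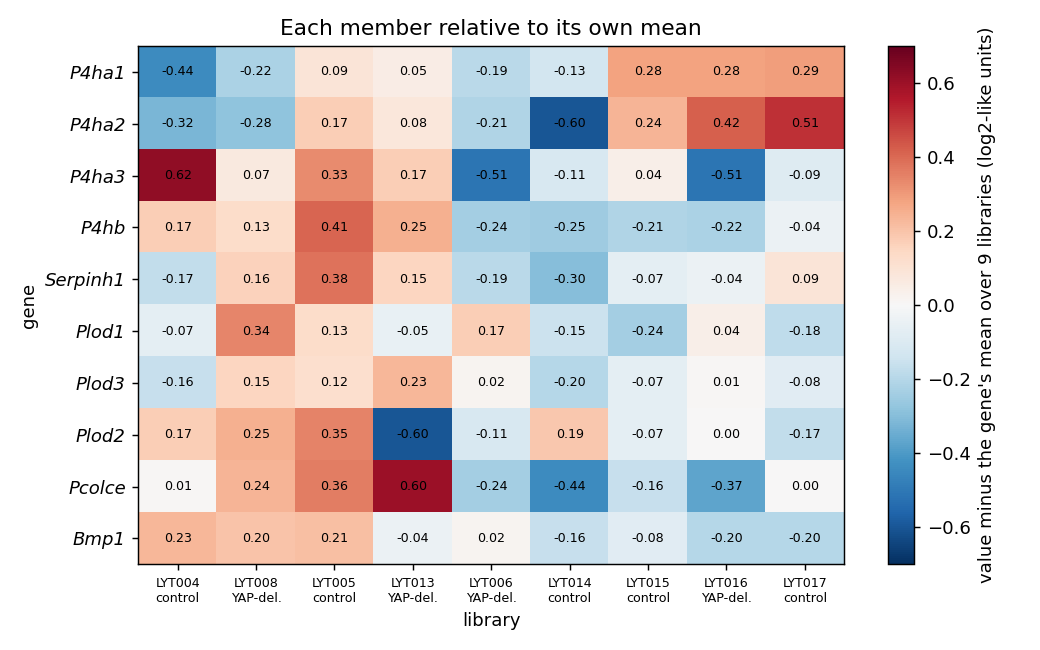
Value of each gene (rows) in each library (columns, with its label) minus the mean of that gene over the 9 libraries, in log2-like units, red above and blue below the mean. P4ha1 and P4ha2 are below their mean in LYT004, LYT006, LYT008 and LYT014 and highest in LYT015, LYT016 and LYT017, while P4hb, Serpinh1 and Pcolce are above their mean in LYT005, LYT008 and LYT013.

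Among genes tested at or above the median level, those nearest to the mean profile of the 10 were the small GTPase Rhoa (0.052), the collagen prolyl 3-hydroxylase P3h1 (0.053), the nucleoporin Nup35 (0.055), and Me1 and Nudt5 (both 0.059), where the median over 8593 genes was 0.254. That median is also raised by genes of wide spread, since spread was not scaled. P4ha2 was nearest to the retinal dehydrogenase Aldh1a1 (0.177), the endoplasmic reticulum co-chaperone Dnajb11 (0.186) and P4ha1 (0.186). Pcolce was nearest to Mpi (0.098), the elastic fibre protein Efemp2 (0.103) and Shisa4 (0.112). P4ha3, which ranged widely through its low counts, was nearest to Prss23 (0.141), Itprip (0.159) and Dysf (0.163).

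The transcripts of collagens I and III spread more widely over the libraries than 9 of the 10 genes, P4ha3 left aside. Col1a1 ranged 7.89-fold over the 9 libraries, from 21307 normalised counts in YAP-deleted LYT016 to 168118 in control LYT004, Col1a2 ranged 3.72-fold and Col3a1 3.43-fold. Over the same libraries Serpinh1 ranged 1.60-fold, P4hb 1.58-fold, P4ha1 1.68-fold, Plod1 1.51-fold, Plod3 1.36-fold and Bmp1 1.35-fold, and the widest ranges apart from P4ha3, which reached 0, were those of P4ha2 (2.39-fold), Pcolce (2.06-fold) and Plod2 (1.98-fold). Per kb, Serpinh1 was 42.8%, 66.1% and 101% of Col1a1 in LYT004, LYT005 and LYT008, where Col1a1 was highest. It was 131%, 163% and 233% in LYT014, LYT006 and LYT015, and 365%, 369% and 369% in LYT017, LYT016 and LYT013. Spread differed among other collagen chains. Col5a1 ran from 32878 to 55249 and Col6a1 from 25891 to 41441 normalised counts, but Col6a3 from 15580 to 76254 and Col4a5 from 123 to 2073. P4ha1 went from 3.12% of Col1a1 in LYT004 to 41.1% in LYT016. The 3 libraries with the highest Col1a1 and the 3 with the lowest each held both labels, and the Serpinh1 share was 168% ± 133 in control and 250% ± 139 in YAP-deleted libraries (SD, n = 5 and 4). Without LYT014 and LYT013, the latter at 369%, it was 177% ± 151 and 211% ± 140 (n = 4 and 3). The mean of 20 cell cycle genes, on the log2-like scale, was 9.93, 10.38 and 9.90 in LYT004, LYT005 and LYT008, 8.59 in LYT014, and 6.88 to 7.18 in the other libraries, and its part in the collagen range was not tested.

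**Figure D5:**
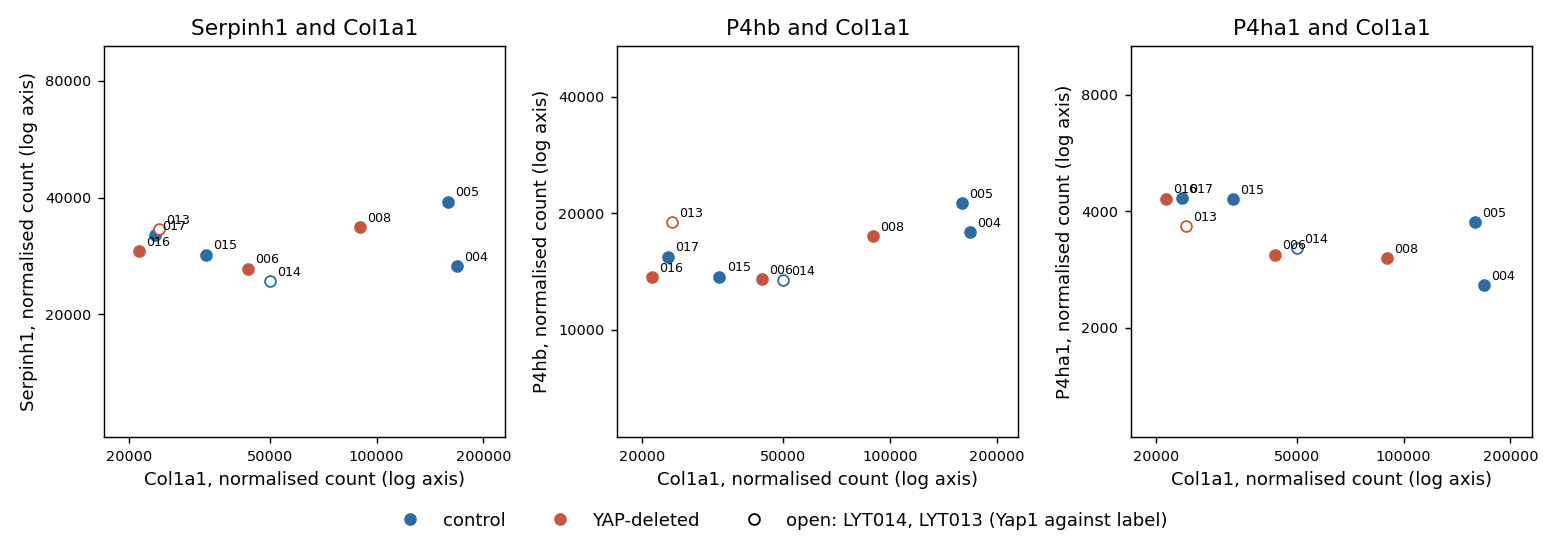
Serpinh1, P4hb and P4ha1 (vertical axes, normalised count, log axis) against Col1a1 (horizontal axes, normalised count, log axis) in each library, labelled by code, control in blue, YAP-deleted in red, with LYT014 and LYT013 open. Col1a1 spreads 7.89-fold, whereas Serpinh1, P4hb and P4ha1 spread 1.60-fold, 1.58-fold and 1.68-fold.

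No partner of the 10 genes in procollagen processing passed the test either. Of 12 genes for 3-hydroxylation, prolyl isomerisation, glycosylation and related steps, 0 passed limma's adjusted threshold in the 9 or the 7 libraries, with 7 and 5 positive differences and medians of 0.06 and −0.03. Beside 7.22% and 6.31% of all genes, 0 and 1 of the 12 had an unadjusted limma p under 0.05. That gene was the collagen galactosyltransferase paralog Colgalt2 (0.44 ± 0.10 in the 7 libraries, SE, limma adjusted p = 0.485), with 6.13 to 7.46 normalised counts in the 4 control and 17.5 to 21.9 in the 3 YAP-deleted libraries. LYT013 had 5.39 and LYT014 15.2, each on the side of its Yap1 level and not of its label, and the difference in the 9 libraries was 0.25 ± 0.14. The next smallest p-values in the 7 libraries were those of the prolyl 3-hydroxylases P3h2 (0.18 ± 0.12) and P3h3 (0.15 ± 0.11) and of the ion channel Tmem38b (−0.22 ± 0.17), and their adjusted p-values in limma lay between 0.851 and 0.886. The isomerase Ppib, which works with P3h1 and Crtap and is singled out after its values were seen, had 10137 normalised counts in LYT013 and 4618 to 5480 in the other 8 libraries.

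Of 12 genes for the export of procollagen in large vesicles, 0 passed in either comparison, and 0 had an unadjusted limma p under 0.05 in either (7 and 6 positive, medians 0.03 and −0.02). Sec23a, a subunit of the COPII coat, was the 1 gene of the 12 that did not overlap between the groups in either comparison, beside 2.84% and 7.33% of all genes. It had 1555 to 1672 normalised counts in the 5 control libraries and 836 to 1535 in the 4 YAP-deleted, the lowest being LYT013 (−0.32 ± 0.16 with 9 libraries, limma adjusted p = 0.649, and −0.13 ± 0.08 with 7, adjusted p = 0.813). The next smallest p-values in the 7 libraries were those of Sar1b (0.08 ± 0.10), Klhl12 (−0.09 ± 0.12) and Creb3l1 (0.13 ± 0.20). Of 9 other procollagen proteinases and the enhancer paralog, 6 were tested, 0 passed in either comparison and 0 had an unadjusted p under 0.05 (3 positive in each, medians 0.00 and 0.02). The smallest p-values in the 7 libraries were those of the proprotein convertase Furin (0.07 ± 0.09), Tll1 (−0.07 ± 0.15), the N-proteinase Adamts3 (−0.11 ± 0.23) and its paralog Adamts2 (0.07 ± 0.20), which had 12754 to 21365 normalised counts. Adamts3 had 118 to 400.

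Of 14 folding and stress response genes of the endoplasmic reticulum, 0 passed in either comparison and 0 had an unadjusted limma p under 0.05 (10 and 8 positive, medians 0.07 and 0.04). Their sum was lowest in LYT004 (71266 normalised counts), LYT006 (90308), LYT014 (94193) and LYT008 (101787), the same 4 libraries in which P4ha1 and P4ha2 were lowest, and 122265 to 133565 in the other 5. Of 14 hypoxia response genes, 0 passed in either comparison (10 positive in each, medians 0.13 and 0.06). Beside 7.22% and 6.31% of all genes, 1 and 2 of the 14 had an unadjusted limma p under 0.05. These were the glycolytic enzyme Aldoa (0.43 ± 0.15 in the 9 libraries, limma adjusted p = 0.649, and 0.30 ± 0.11 in the 7, adjusted p = 0.734) and the peptide hormone gene Adm (0.58 ± 0.16 in the 7, adjusted p = 0.572). Vegfa, a classical hypoxia-inducible gene, had its highest level in YAP-deleted LYT006 (745 normalised counts) and its lowest in control LYT017 (192). Control LYT004 (435) and LYT014 (360) exceeded YAP-deleted LYT008 (299), LYT016 (295) and LYT013 (260), whereas control LYT005 (213) and LYT015 (214) did not. Whether the genes of these lists have a part in the levels of P4ha1 and P4ha2 was not tested.

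Of the fibrillar procollagen chains, 7 were tested in the 9 libraries and 8 in the 7, and 0 passed in either (1 positive in each, medians −0.45 and −0.29). The smallest p-values in the 7 libraries were those of Col2a1 (−0.20 ± 0.10), at 1.23 normalised counts or fewer, Col5a2 (−0.47 ± 0.37), Col1a2 (−0.52 ± 0.50) and Col5a1 (−0.19 ± 0.20). Col2a1 was at 0 in every YAP-deleted library and passed the filter only through control libraries. The sign of its difference was thus fixed by the filter, and it is counted in the 8 and their median. Of 7 basement membrane and network collagen chains, 0 passed in either and 0 had an unadjusted p under 0.05 (2 and 3 positive, medians −0.26 and −0.16). Lysyl oxidases act on collagen lysines whether or not Plod enzymes have modified them, and 0 of 5 passed in either comparison. Lox was at −1.30 ± 0.57 in the 9 libraries (limma unadjusted p = 0.0444, adjusted p = 0.649) and −1.17 ± 0.71 in the 7 (limma adjusted p = 0.831). Beside 7.22% and 6.31% of all genes, 1 and 0 of the 5 lysyl oxidases had an unadjusted limma p under 0.05. Their median difference was −0.24 in the 9 libraries and 0.02 in the 7. Of 14 YAP and TAZ target genes, 0 passed in either (5 positive in each, medians −0.18 and −0.17). Of the 14, 2 and 7 had an unadjusted limma p under 0.05, beside 7.22% and 6.31% of all genes. In the 7 libraries the smallest p-values were those of Ajuba (−0.961 ± 0.183), Ptpn14 (−0.371 ± 0.077), Ccn1 (−0.947 ± 0.226) and Tgfb2 (−0.515 ± 0.130). Crim1 (0.432 ± 0.144), also under 0.05 unadjusted, was higher in YAP-deleted. The 7 libraries were chosen by Yap1 level, so this count is not independent of that choice. The groups did not overlap for 1 and 5, beside 2.84% and 7.33% of all genes. Of the 20 cell cycle genes, 0 passed and 0 had an unadjusted limma p under 0.05 in either, with all 20 differences negative (medians −0.86 and −0.56).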

How the data were processed

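The table deposited by the authors holds 1 variance-stabilised, log2-like value per gene name and library, per the file headers. How these values were made is not stated in the labels. The submitters' processing notes name the tools kallisto 0.44.0, sleuth and bcl2fastq 2.20 and the builds GRCm38, mm10 and GRCh38, without roles. Per the labels' protocols, poly-A and ribosomal depletion preparations were both described, without saying which one each library received. The lowest value, 4.96, stands for 0 in every library. Inverting the variance-stabilising form gave whole counts to within 0.1 for 100.0% of values above it. The column headed LYT013.1 was used for LYT013. Of the gene names, 26 had been turned into dates.

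A gene was tested where at least 4 of 9, or 3 of 7, libraries exceeded the lowest value, with limma 3.58.1 (R 4.3.3; group, mean-variance trend, two-sided, Benjamini-Hochberg over all genes at 0.05). On simulated counts with 200 changed genes, limma recovered 26.9% of changes of 0.5 log2 units, 70.1% of 1 and 95.5% of 2 with 9 libraries and 17203 genes, and 29.9%, 76.1% and 95.5% with 7 libraries and 17296 genes. In this simulation the labels were taken as true, genes were drawn independently, and only genes at or above the median level were changed. In the 9 libraries Yap1 itself did not pass (limma adjusted p = 0.649), so these shares may be too high for the deposited data. Gene positions and transcript lengths came from GENCODE M21 and upstream sequences from RefSeq (GRCm38.p6), and the upstream table matched 8 of the 10 genes. Named genes were the 10, Yap1, up to 4 genes with the smallest p in the 7 libraries from each list described, and the nearest profiles. Col1a1, Col3a1, Col4a5, Col6a1, Col6a3, Ppib, Tll2, Pcolce2, Crim1, Myh11, Clec4g, Kdr and Stab2 were named outside this rule, after their values were seen. The 10 genes and the lists were chosen with earlier results of these data known. Other filters, scalings, transformations, weights and covariates, and leaving out each library, were tried. The summed level of 1 marker list is not reported here.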

Additional observations from a re-analysis of the deposited data

Results flagged for a closer look

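In groups of 4 or 5 libraries, the gap between an end library and its nearest neighbour was compared with the whole range for the 10 genes and Yap1. Of 33 groups, 2 had a library standing apart, both for Yap1: the library labelled control LYT014 (618 normalised counts, others 2902 to 3653) and the library labelled YAP-deleted LYT013 (2530, others 642 to 648). Chance gives about 1 such group in 20. LYT013 and LYT014 had been set apart beforehand by their Yap1 level, so the Yap1 flags repeat that check and add nothing to it. None of the 10 procollagen genes had such a library.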

How the results depend on the processing

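None of the 10 genes passed the threshold under any filter, scaling, transformation, weight or covariate tried, or without any 1 library, in the 9 or the 7 libraries. The smallest adjusted p was 0.173, for Plod1 in the 7. Plod1 (0.157 to 0.309 in the 9, 0.196 to 0.348 in the 7) and Plod3 (0.138 to 0.231, 0.063 to 0.164) stayed positive and P4ha3 (−1.802 to −0.239, −2.981 to −0.416) negative under the alternatives that gave a value, and none was called. P4ha3 passed the filter through the control libraries, so its steady sign is no support for a difference. Signs turned where differences were near 0, and the cause was not tested. In the 9 libraries P4ha2 and Serpinh1 were −0.001 and −0.026 with quantile normalisation, and Bmp1 0.018 with libraries shifted to 1 median. With library weights P4ha2, Serpinh1, Pcolce and Bmp1 were −0.079, −0.002, −0.010 and 0.052. With the range of library codes as covariate P4ha1 was 0.001, and with the cell cycle mean P4ha2, P4hb and Bmp1 were −0.116, 0.057 and 0.090. Among codes 4 to 8 P4ha2, Serpinh1 and Pcolce were −0.17, −0.12 and −0.18, and among codes 13 to 17 P4ha1, P4hb and Bmp1 were 0.02, 0.18 and 0.03. In the 7 libraries Plod2 was 0.003 with libraries shifted to 1 median, Plod2 and Bmp1 were 0.008 and 0.033 with library weights, and 0.047 and 0.034 with the cell cycle mean.

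Leaving out each library in turn gave these ranges for the genes whose sign turned. In the 9 libraries they were P4ha2 −0.146 to 0.130, P4hb −0.125 to 0.065, Serpinh1 −0.040 to 0.130, Bmp1 −0.071 to 0.062, P4ha1 −0.148 to 0.034 and Pcolce −0.076 to 0.245. In the 7 they were Plod2 −0.122 to 0.072, Bmp1 −0.128 to 0.072 and Serpinh1 −0.176 to 0.025.

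Over all genes the 12 calls of the 7 libraries became 25 with the range of library codes and 36 with the cell cycle mean as covariate, and 2 to 11 without 1 library (6, 5, 2, 7 and 3 without LYT004, LYT017, LYT006, LYT008 and LYT016). With the longest transcript P4ha1, P4hb and Plod1 were 887, 5642 and 1660 normalised counts per kb. The Plod1 to Plod2 ratio of group means was 1.23 without LYT013 and LYT014, alternatives chosen after seeing the data, and 1.26 to 1.44 without 1 library. The groups did not overlap in the 9 libraries, so leaving libraries out could not make them overlap and is no further support. At counts as low as those of P4ha3, depth limits what can be seen. No paired analysis was possible because no library code is shared between the groups.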
